A study of Mus musculus with 6 samples.

Results

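The Kelch-like (Klhl) and KBTBD (Kbtbd) genes are described here in bulk RNA-Seq counts of mouse skeletal muscle. Members were all gene symbols of the deposited counts that begin with Klhl or Kbtbd followed by a number, which gave 46 of 24421 genes. Of these, 41 passed the filter on low counts and were tested. The muscle was gastrocnemius-plantaris (GP) of male mice, strain background B6C3F1, at 5 months of age and 3 months after tamoxifen, with 3 libraries labelled Ctrl and 3 labelled cKO. By the labels, Ctrl stands for Net39 fl/fl without Cre and cKO for HSACreERT2 with Net39 fl/fl, so that both groups share the floxed alleles and the tamoxifen. Cre is under the HSA promoter, which is active in muscle fibres, so the other cells of the tissue, satellite cells among them, are not targeted. The question asked of each gene was whether its transcript level differed between the groups.

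Kelch-like and KBTBD proteins are mostly substrate adaptors of the cullin 3 ubiquitin ligase. Their BTB domain binds cullin 3 and their kelch repeats bind a target, so each adaptor brings its own set of proteins to the ligase, and attachment of NEDD8 to the cullin switches the ligase on. In striated muscle several of them sit at the sarcomere: KLHL40, KLHL41 and KBTBD13 are mutated in nemaline myopathy, a disease of the thin filaments, and KLHL40 and KLHL41 stabilise rather than degrade the thin filament proteins they bind.

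Net39, listed under its older symbol Ppapdc3, was the targeted gene and went against the labels. It had 310, 321 and 217 counts labelled Ctrl and 5365, 4340 and 6080 counts labelled cKO. The paper reports reduced Net39 transcript in cKO muscle by RNA-Seq. The labels of the groups may therefore be exchanged, which was not settled here. The 6 libraries were used as labelled and every direction is that of the labelled groups, so each higher or lower would be reversed with respect to loss of Net39 if the labels are exchanged. Library sizes ran from 33860001 to 38201728 counts (labelled Ctrl) and from 39191239 to 48839910 counts (labelled cKO), without overlap. Levels are given as CPM, counts scaled to library size with TMM normalization and listed in the order of mice 1, 2 and 3, and a member passed at an adjusted p under 0.05 in edgeR's quasi-likelihood test over all 14180 genes tested. Markers of muscle fibres were abundant in every library. They summed to 70740 to 73700 CPM labelled Ctrl and 81070 to 103700 CPM labelled cKO (2 of 6 passed, all higher). Marker transcripts of the fibre types differed between the groups. The 7 slow fibre markers summed to 8168 to 13640 CPM labelled Ctrl and 344 to 3300 CPM labelled cKO (3 of 7 passed, all lower labelled cKO). Without cKO mouse 1 those 3 no longer passed (adjusted p 0.0778 to 0.128 by edgeR). The 4 markers of fast type IIb fibres summed to 24180 to 53200 and 81840 to 114300 CPM (4 of 4 passed, all higher). Without control mouse 2, Myh4, Actn3 and Pvalb no longer passed (adjusted p 0.0532 to 0.0764 by edgeR). The paper reports more slow (type I) and fewer type IIb myonuclei in cKO muscle, which is opposite to the labelled direction here. Leukocyte markers summed to 48.1 to 61.2 and 25.2 to 39.2 CPM (3 of 5 passed, all lower). Of these, Cd68 and Csf1r no longer passed without control mouse 2 (adjusted p 0.0699 and 0.0561 by edgeR). Adgre1 no longer passed without cKO mouse 3 (0.126). B cell markers summed to at most 0.868 CPM in any library, and endothelial markers to 342 to 360 and 308 to 337 CPM (0 of 4 passed). The markers of fibro-adipogenic progenitors summed to 936 to 1128 and 627 to 1170 CPM (1 of 4 passed, lower), those of Schwann cells to 137 to 201 and 78.1 to 127 CPM (1 of 4 passed, lower), and those of satellite cells and proliferation to 3.02 to 5.36 and 2.79 to 4.23 CPM (0 of 3 passed). No defining marker of these lists was at 0 in every library. The part of these shifts in the results for the members was not tested.

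The promoters of 3 members hold the binding element of the MEF2 factors, which drive muscle genes. The element searched was CTA, then 4 bases that are each A or T, then TAG, which reads the same on both strands. RefSeq promoters on GRCm38.p6 run from 250 bases before to 50 bases after the start, and the table holds 50 promoters of 38 members. The element occurred in 3 of the 50 member promoters (6%) and in 183 of all 32851 promoters (0.557%). The windows below are printed in the direction of transcription, with the element in capitals, because they belong to the most abundant member and to the pair with the largest differences. A match is a description of the letters and not evidence of a bound factor.
Klhl41: gagccggtgtCTATATTTAGccggtgggat
Klhl33: ctcaggctagCTATAATTAGccaagtgcgg
Kbtbd12: ctcgcttggtCTATTTATAGtgcttgtcag
The Klhl41 window lies at chr2:69670047-69670076 on the plus strand, and its element begins 63 bases before the start of the gene. The Klhl33 window lies at chr14:50897514-50897543 on the minus strand, with the element 50 bases before the RefSeq start, which lies slightly inside the GENCODE M21 gene. The Kbtbd12 window lies at chr6:88627501-88627530 on the minus strand, with the element 91 bases before a RefSeq start that lies inside the longer GENCODE M21 gene, so it is not at the outermost annotated start of Kbtbd12. These 3 members did not move in 1 direction, since, labelled cKO over labelled Ctrl, Klhl41 was lower and Klhl33 and Kbtbd12 were higher. The E-box CAGCTG, read by the myogenic factors, occurred in 11 of the 50 member promoters (22%) and in 16.3% of all promoters. The 10 members were Klhl41, Klhl40, Klhl34, Klhl21, Klhl13, Klhl4, Klhl5, Klhl6, Klhl10 and Klhl35. The same site of Klhl13 was counted in overlapping promoters, and the match of Klhl10 lay after the start. In Klhl41, the 1 member with both, the E-box lay 127 bases before the start and did not overlap the MEF2 element.

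The members ranged in level over several orders of magnitude. Per kb of merged exons (GENCODE M21, 45 members with a length), Klhl41 stood highest, at 574 ± 58.3 CPM per kb (SD, n = 3) labelled Ctrl and 385 ± 17 labelled cKO. Klhl40 followed with 131 ± 28 and 80.1 ± 24.6, Klhl31 with 59.1 ± 8.19 and 81.3 ± 2.3, Klhl21 with 38.8 ± 0.386 and 73.1 ± 15 and Klhl30 with 30.7 ± 11.1 and 37.4 ± 1.09 CPM per kb. Of these 5 genes, 4 are known mainly from striated muscle. In the libraries labelled Ctrl the first 3 did not overlap each other, with 509 to 622, 102 to 159 and 53.3 to 68.5 CPM per kb, whereas Klhl21 (38.5 to 39.3) lay within the range of Klhl30 (22.2 to 43.3). In the libraries labelled cKO the values of Klhl40 (61.1 to 108), Klhl31 (78.8 to 83.2) and Klhl21 (58.1 to 88.2) overlapped, so their order could not be told from the spread. At the other end were 5 members that were not tested. Klhl1, known from neurons, and Klhl14 had 0 counts in all 6 libraries. Kbtbd6, Klhl32 and Klhl35 had at most 5 counts in any library.

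**Figure D1:**
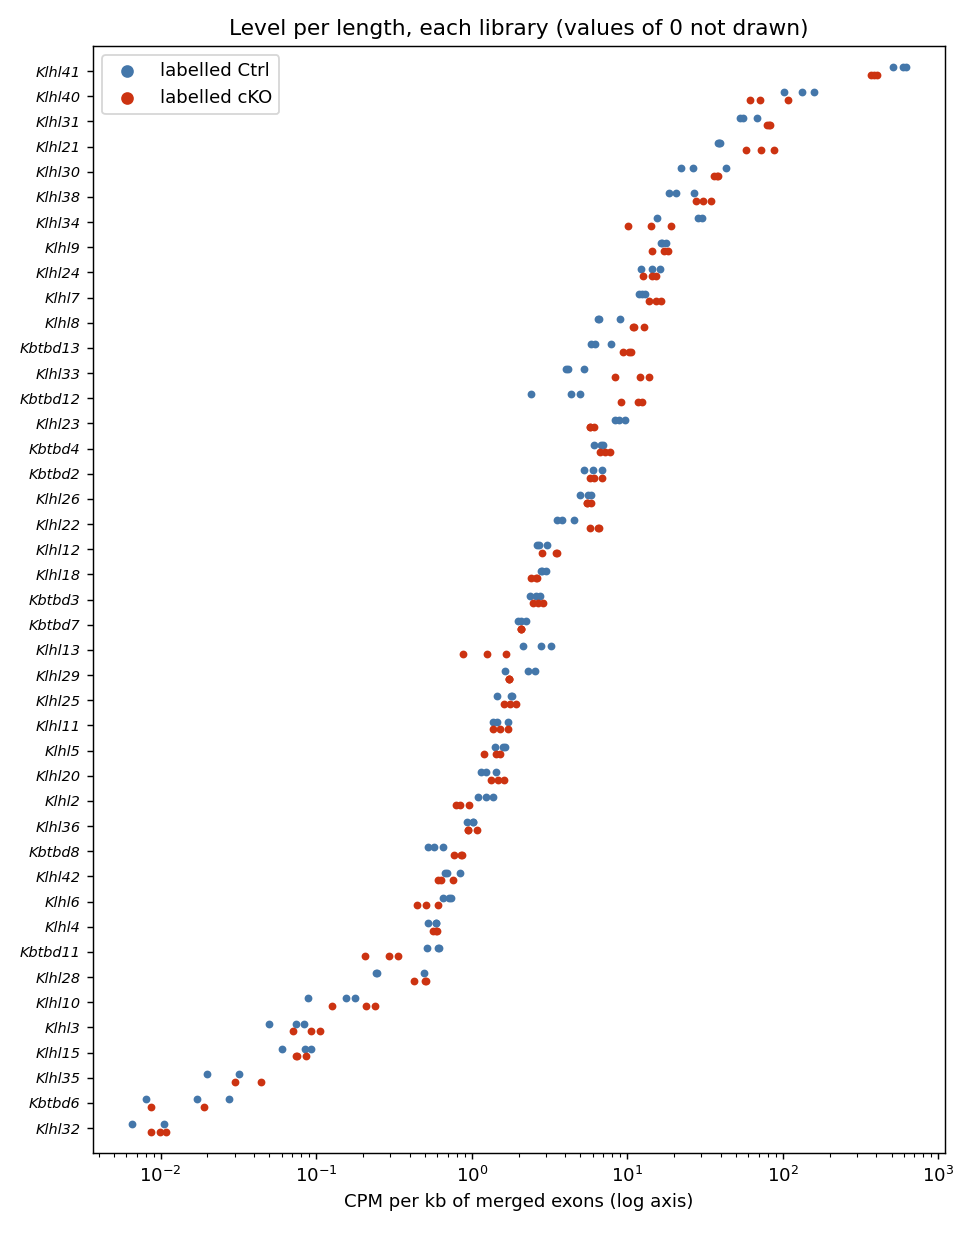
Level of each member per kb of merged exons (CPM per kb, log axis) in each of the 6 libraries, in order of the mean, with libraries labelled Ctrl in blue and cKO in red and values of 0 not drawn. Klhl41 lies at 367 to 622 CPM per kb, above every other member, and Klhl40, Klhl31 and Klhl21 overlap in the libraries labelled cKO.

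Of the 41 members tested, 14 passed, of which 9 were higher and 5 lower in the libraries labelled cKO. This is 34.1% of the members, against 24.4% of all genes tested. Higher members made up 22% against 12.6% of all genes, and lower members 12.2% against 11.8%. With a fold change over 2 as well, 4 members were called (Kbtbd12 and Klhl33 higher, Klhl13 and Kbtbd11 lower), or 9.76% against 6.05% of all genes. The groups did not overlap for 18 of the 41 members (43.9%), and this share over all genes was also 43.9%. The median log2 fold change was 0.04 over the members and -0.02 over all genes tested. The median absolute log2 fold change was 0.31 over the members and 0.27 over all genes. Scaled to total counts in place of TMM, the median of all genes was -0.27, and the split of the members became 4 higher and 11 lower. The count of 14 was 8 without the library of either control mouse 1 or control mouse 2 and 9 without cKO mouse 1. That of 9 higher members was 5 without any 1 of these 3 libraries, and that of 5 lower members was 3 without control mouse 1 or control mouse 2. The pair called lower with a fold over 2 fell to 0 without control mouse 1 or cKO mouse 3 and to 1 without cKO mouse 1. In bulk muscle, fewer cells of a type and less RNA per cell cannot be told apart.

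**Figure D2:**
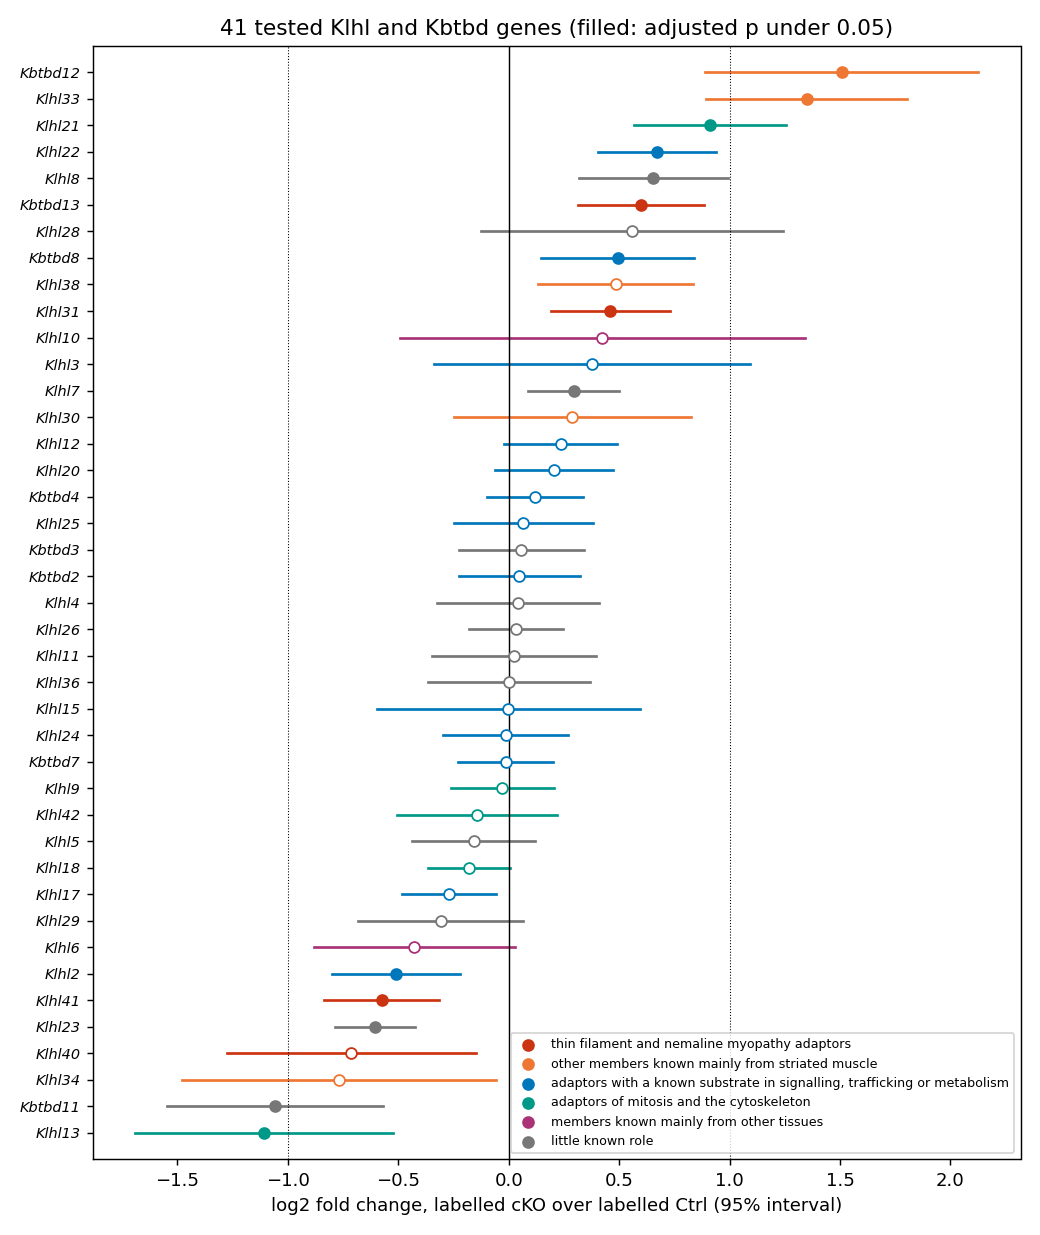
Log2 fold change of the 41 tested members, libraries labelled cKO over labelled Ctrl, with 95% intervals, filled where the adjusted p is under 0.05 and coloured by role. Values run from -1.11 for Klhl13 to 1.51 for Kbtbd12, and the dotted lines mark a fold change of 2 in either direction.

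Klhl40, Klhl41 and Kbtbd13, linked to nemaline myopathy, and Klhl31, listed in the same role, did not move together. Klhl31 and Kbtbd13 were higher and Klhl41 was lower in the libraries labelled cKO, and Klhl40 did not pass the test. Klhl41, a partner of nebulin, is encoded on chromosome 2 (GRCm38, plus strand), from 69670120 to 69684230, with 6 coding exons. Its level was 1286, 1494 and 1572 CPM labelled Ctrl and 1013, 928 and 981 CPM labelled cKO. The lowest library labelled Ctrl lay above the highest labelled cKO. The log2 fold change was -0.58 (SE 0.111, adjusted p = 0.0124 by edgeR's quasi-likelihood test), and without control mouse 2 the adjusted p was 0.051. Klhl40, which stabilises nebulin and leiomodin 3, lies on chromosome 9 from 121777607 to 121783818. Its level was 256, 332 and 396 CPM labelled Ctrl and 270, 153 and 178 CPM labelled cKO. The library of cKO mouse 1 lay inside the range labelled Ctrl, and the other two lay below it. The log2 fold change was -0.71 (SE 0.24, 95% interval -1.28 to -0.15, adjusted p = 0.0702 by edgeR). DESeq2's Wald test gave an adjusted p of 0.0172, scaling to total counts in edgeR 0.0135, and edgeR without cKO mouse 1 gave 0.0299. An annotated transcript of unknown status on the other strand shares 21.6% of the exon bases of Klhl40, and whether the counting used strand is not given in the sources used here.

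Klhl31, whose loss causes a myopathy in mice and whose protein targets filamin C, is encoded on chromosome 9 (plus strand) from 77636500 to 77660127. Its level was 346, 361 and 445 CPM labelled Ctrl and 511, 540 and 533 CPM labelled cKO. All libraries labelled cKO lay above all labelled Ctrl. The log2 fold change was 0.46 (SE 0.115, adjusted p = 0.0277 by edgeR). With total counts as the scale it was 0.21 with an adjusted p of 0.207. Without control mouse 1, control mouse 2, cKO mouse 1, cKO mouse 2 or cKO mouse 3 the adjusted p by edgeR was 0.0931, 0.097, 0.0665, 0.0504 and 0.0876. Kbtbd13 slows relaxation of muscle when mutated and has a single coding exon, on the minus strand of chromosome 9 from 65388684 to 65391652. Its level was 18.4, 23.2 and 17.4 CPM labelled Ctrl and 31.2, 30.6 and 27.8 CPM labelled cKO, again without overlap. The log2 fold change was 0.60 (SE 0.122, adjusted p = 0.0149 by edgeR). Leaving out libraries gave 0.0602 without control mouse 1 and 0.0584 without cKO mouse 1 as adjusted p, and total counts gave 0.0786.

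Among the 5 other members known mainly from striated muscle, 2 were higher in the libraries labelled cKO, 0 lower, and 3 did not pass. The median log2 fold change of the 5 was 0.48. Counts by role, here and for the other roles, are small and stand beside 12.6% higher and 11.8% lower over all genes tested. Kbtbd12 lies on the minus strand of chromosome 6 from 88545114 to 88637950, and its level was 40.9, 46.3 and 22.5 CPM labelled Ctrl and 85 CPM, 110 CPM and 117 CPM labelled cKO. Every library labelled cKO was well above the highest labelled Ctrl. The fold change was 2.84 (log2 1.51, SE 0.263, adjusted p = 0.00909 by edgeR), the largest among the members tested. Klhl33 lies on the minus strand of chromosome 14 from 50888582 to 50897507. Its level was 26.2, 33.1 and 25.6 CPM labelled Ctrl and 76.1, 52.9 and 87.4 CPM labelled cKO. No libraries overlapped, and the fold change was 2.55 (log2 1.35, SE 0.194, adjusted p = 0.00527 by edgeR). Both genes passed in all 14 alternative fits, each of the 6 libraries left out in turn included.

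Klhl30, the last of the 5 highest levels, had 68.5, 81.8 and 134 CPM labelled Ctrl and 118, 112 and 117 CPM labelled cKO. The library of control mouse 3 lay above all the others. The log2 fold change was 0.29 (SE 0.228, 95% interval -0.25 to 0.82, adjusted p = 0.387 by edgeR), and without control mouse 3 it was 0.62 with an adjusted p of 0.0105. The last pair of this role is given to complete it. Klhl34, a gene of 1 coding exon on the X chromosome, had 58.6, 55.2 and 29.8 CPM labelled Ctrl and 27.5, 37.1 and 19.7 CPM labelled cKO. Its groups overlapped at control mouse 3 and cKO mouse 2. The log2 fold change was -0.77 (SE 0.303, 95% interval -1.48 to -0.06, adjusted p = 0.106 by edgeR). In edgeR the adjusted p was 0.0307 without control mouse 3 and 0.0485 with total counts, and 0.0367 in DESeq2. Klhl38 had 59.5, 41.2 and 45.8 CPM labelled Ctrl and 60.9, 68 CPM and 76.2 CPM labelled cKO, with a small gap between the groups. Its log2 fold change was 0.48 (SE 0.15, 95% interval 0.13 to 0.84, adjusted p = 0.054 by edgeR). Without control mouse 1 the adjusted p was 0.0265 in edgeR, and with all libraries it was 0.0165 in DESeq2. An antisense gene shares 65.4% of the exon bases of Klhl38, and without strand in the counting their reads cannot be told apart.

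**Figure D3:**
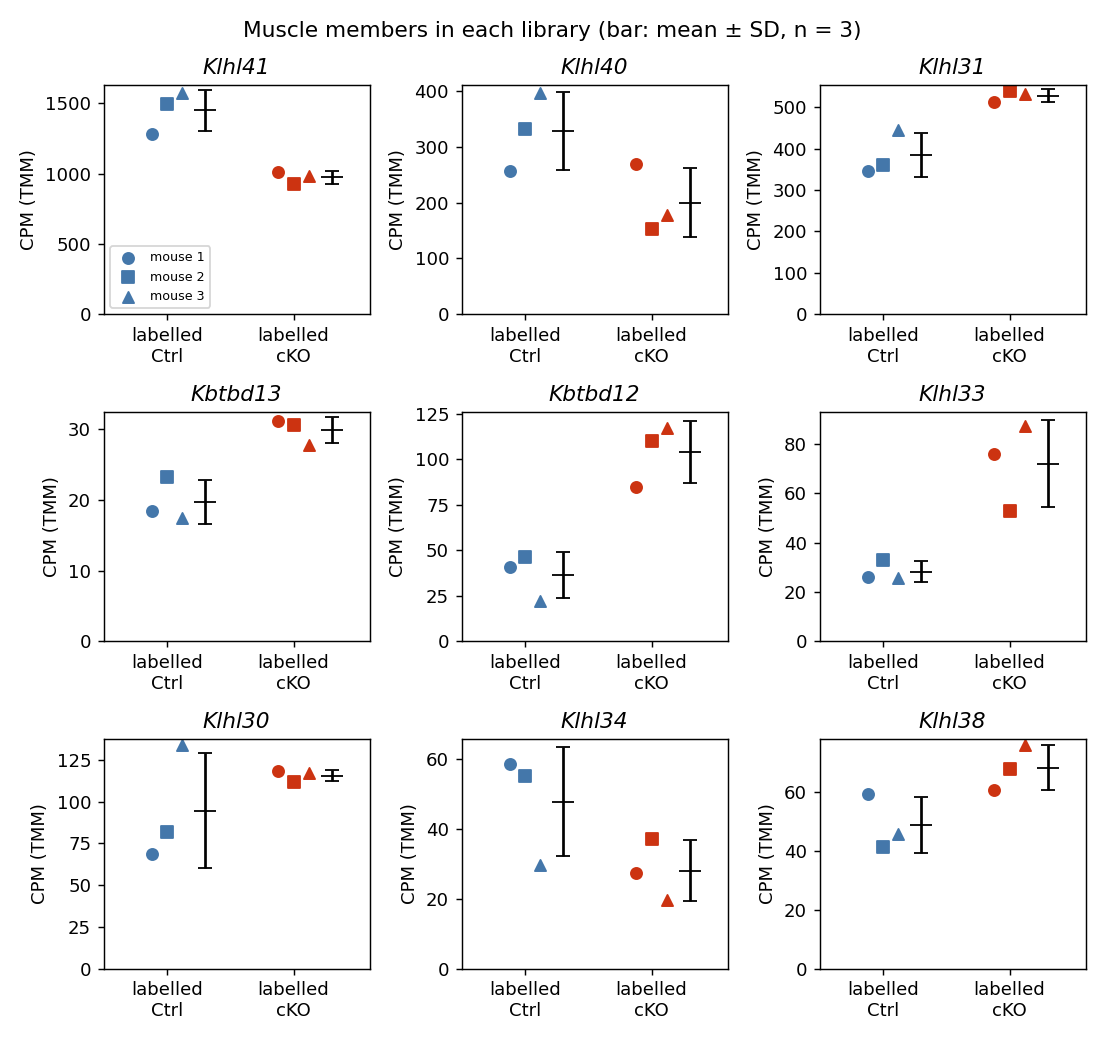
CPM (TMM) of the 9 members known mainly from striated muscle in each library, with the mean and SD of each labelled group (n = 3) beside the points and the axis starting at 0. Klhl41, Klhl31, Kbtbd13, Kbtbd12, Klhl33 and Klhl38 do not overlap between the groups, and Klhl40, Klhl30 and Klhl34 do.

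Of the 5 adaptors of mitosis and the cytoskeleton, 1 was higher, 1 lower and 3 did not pass. Klhl21, which brings Aurora B kinase to the ligase during cell division, is encoded on chromosome 4 (plus strand) from 152008803 to 152017680. Its level was 155, 154 and 157 CPM labelled Ctrl and 290 CPM, 232 CPM and 352 CPM labelled cKO. The libraries labelled Ctrl were close to each other (155 ± 1.54 CPM, SD, n = 3) and those labelled cKO spread more widely (291 ± 59.9 CPM), without overlap. The fold change was 1.88 (log2 0.91, SE 0.147, adjusted p = 0.00737 by edgeR), and Klhl21 passed in all 14 alternative fits. A transcript of unknown status on the other strand shares 20.5% of its exon bases. Klhl13 acts with KLHL9 on the same kinase. Its level was 11.8, 9.03 and 13.7 CPM labelled Ctrl and 5.31, 7.01 and 3.75 CPM labelled cKO. All libraries labelled cKO lay below all labelled Ctrl, with a fold change of 2.15 lower (log2 -1.11, SE 0.249, adjusted p = 0.0202 by edgeR). The adjusted p was 0.0667 without control mouse 1 and 0.065 without cKO mouse 1, and without cKO mouse 3 the log2 fold change was -0.92, which is under a fold of 2.

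Of the 14 members with a known substrate in signalling, trafficking or metabolism, 13 were tested. Among these 2 were higher, 1 was lower and 10 did not pass. Klhl22, which marks the mTORC1 inhibitor DEPDC5 for degradation, had 18.4, 20 CPM and 23.7 CPM labelled Ctrl and 34.5, 30.2 and 34.1 CPM labelled cKO. The groups were well apart, with a log2 fold change of 0.67 (SE 0.113, adjusted p = 0.00826 by edgeR), and Klhl22 passed in all 14 alternative fits. Kbtbd8, which acts on ribosome biogenesis factors in the neural crest, had 3.35, 2.92 and 2.68 CPM labelled Ctrl and 4.32, 3.9 and 4.39 CPM labelled cKO. Its log2 fold change was 0.49 (SE 0.147, adjusted p = 0.0484 by edgeR). The adjusted p rose to 0.0657 to 0.164 when any 1 of the 6 libraries was left out and to 0.274 with total counts. Klhl2, an actin-binding adaptor of WNK kinases, was the lower member of this role. Its level was 12.7, 11.5 and 10.1 CPM labelled Ctrl and 7.37, 8.86 and 7.82 CPM labelled cKO. The groups did not overlap, and the log2 fold change was -0.51 (SE 0.124, adjusted p = 0.0259 by edgeR). Without control mouse 1, control mouse 2, cKO mouse 1 or cKO mouse 3 the adjusted p was 0.0931, 0.0765, 0.0875 and 0.087.

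Of 14 members of little known role, 12 were tested, of which 2 were higher, 2 lower and 8 did not pass. Klhl23 had the smallest adjusted p of all members. Its level was 47.4, 43.4 and 41.4 CPM labelled Ctrl and 30 CPM, 28.5 CPM and 28.4 CPM labelled cKO. Each group was tight and far from the other, with a log2 fold change of -0.60 (SE 0.0769, adjusted p = 0.00369 by edgeR), and Klhl23 passed in all 14 alternative fits. Kbtbd11, a gene of 1 coding exon, had 4.37, 3.69 and 4.32 CPM labelled Ctrl and 2.09, 2.39 and 1.48 CPM labelled cKO. It was 2.08-fold lower without overlap (log2 -1.06, SE 0.208, adjusted p = 0.0131 by edgeR). Without control mouse 1 the adjusted p was 0.0509, and without cKO mouse 3 the log2 fold change was -0.89. A transcript of unknown status on the other strand shares 24.8% of its exon bases. Klhl8 was higher, with 23 CPM, 22.5 CPM and 31.5 CPM labelled Ctrl and 38.4, 44.6 and 38.1 CPM labelled cKO. The highest library labelled Ctrl was control mouse 3, still below all labelled cKO, and the log2 fold change was 0.65 (SE 0.144, adjusted p = 0.019 by edgeR). The adjusted p was 0.0715 without control mouse 1, 0.0631 without control mouse 2 and 0.0866 with total counts. Klhl7, mutated in a form of retinitis pigmentosa, had 49.1, 51.4 and 46.9 CPM labelled Ctrl and 65.7, 54.5 and 60.4 CPM labelled cKO. Its log2 fold change was the smallest among members that passed, 0.29 (SE 0.0882, adjusted p = 0.0493 by edgeR). With total counts it was 0.03 with an adjusted p of 0.741, and with control mouse 1, control mouse 2, control mouse 3, cKO mouse 1 or cKO mouse 3 left out the adjusted p was 0.0896 to 0.167.

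**Figure D4:**
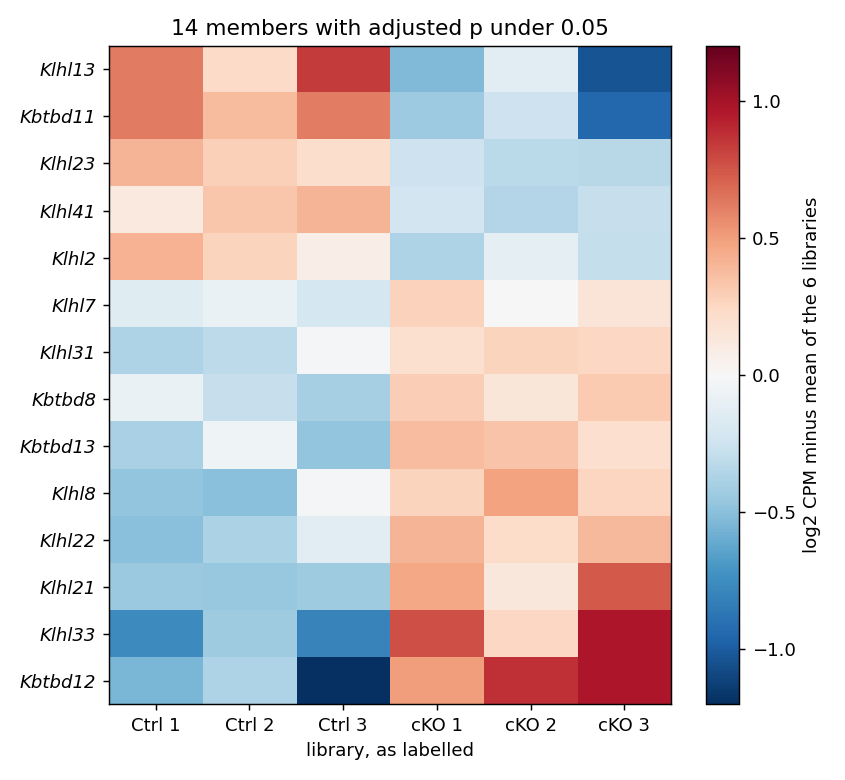
Log2 CPM of the 14 members with an adjusted p under 0.05, each as the difference from its mean over the 6 libraries (colour scale, log2 units), for the libraries as labelled. The 5 lower members change from red to blue between the labelled groups and the 9 higher members from blue to red, a pattern that their selection fixes.

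The 27 tested members that did not pass had log2 fold changes from -0.77 to 0.56, and for 22 of them the whole 95% interval lay within a fold of 2 in either direction. The intervals of the other 5, Klhl40, Klhl34, Klhl28, Klhl3 and Klhl10, named after their values were seen, reached past it. Klhl24, an adaptor that acts on intermediate filaments, was abundant at 145 CPM labelled Ctrl and 144 CPM labelled cKO (log2 -0.01, 95% interval -0.30 to 0.27). Klhl9, the partner of KLHL13, had 70.5 and 69.1 CPM (log2 -0.03, 95% interval -0.26 to 0.20). Of the 4 members known mainly from neurons, testis or lymphoid cells, 2 were tested and 0 passed. Klhl6, known from B cells, had 1.82 and 1.35 CPM (log2 -0.43, 95% interval -0.88 to 0.03), beside B cell markers that summed to 0.465 to 0.868 and 0.273 to 0.452 CPM. Klhl10, needed for sperm formation, had 0.304 and 0.414 CPM. The Kbtbd7 and Kbtbd6 genes are neighbours on chromosome 14 and differed in level, with 333 to 411 counts for Kbtbd7 and 0 to 3 for Kbtbd6.

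The ligase itself was described by its scaffold and regulators. Of 23 genes of cullin 3 and the NEDD8 cycle, 10 were higher, 1 was lower and 12 did not pass, and 0 passed a fold of 2. Over all genes tested, 12.6% were higher and 11.8% lower. The median log2 fold change was 0.15, against -0.02 over all genes. Cul3, the scaffold, had 178, 193 and 217 CPM labelled Ctrl and 351, 319 and 348 CPM labelled cKO. Its groups lay far apart, the log2 fold change was 0.79 (SE 0.1, adjusted p = 0.00368 by edgeR), and Cul3 passed in all 14 alternative fits. The list count depended on the libraries and the scale: it was 3 higher without control mouse 1 or control mouse 2, 4 without cKO mouse 1 or cKO mouse 3, and 4 higher with 4 lower with total counts. Without any 1 library other than cKO mouse 2 the lower count was 0, and without cKO mouse 2 it was 2.

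The partners of the muscle members divided. Of 5 genes, 1 was higher and 3 were lower in the libraries labelled cKO, against 12.6% and 11.8% of all genes. Neb, the giant ruler of the thin filament, had 4676, 4518 and 5579 CPM labelled Ctrl and 7677, 6687 and 7483 CPM labelled cKO (log2 0.56, SE 0.139, adjusted p = 0.027 by edgeR). The adjusted p was 0.0867 to 0.107 without control mouse 1, control mouse 2, cKO mouse 1 or cKO mouse 3 and 0.0748 with total counts. Lmod3, the leiomodin that KLHL40 stabilises, had 187, 192 and 171 CPM labelled Ctrl and 114, 124 and 133 CPM labelled cKO. It was lower in every library labelled cKO (log2 -0.57, SE 0.0907, adjusted p = 0.00704 by edgeR) and passed in all 14 alternative fits. Lmod2, the leiomodin best known from heart, had 876, 567 and 479 CPM labelled Ctrl and 179, 237 and 192 CPM labelled cKO. This was the largest difference of the list (log2 -1.66, SE 0.235, adjusted p = 0.00509 by edgeR), again in all 14 alternative fits, beside slow fibre markers with a median log2 fold change of -2.53. Flnc, filamin C, the target of KLHL31, had 2373, 2253 and 2456 CPM labelled Ctrl and 1676, 1127 and 1356 CPM labelled cKO (log2 -0.77, SE 0.157, adjusted p = 0.0149 by edgeR, 0.0577 without cKO mouse 3). Nrap, a scaffold of myofibril assembly that KLHL41 targets, had 3078, 3347 and 3185 CPM labelled Ctrl and 3204, 2339 and 3285 CPM labelled cKO. Its groups overlapped, with a log2 fold change of -0.12 (SE 0.154, adjusted p = 0.594 by edgeR), and the library of cKO mouse 2 lay below the other 5. With total counts as the scale it was -0.39 with an adjusted p of 0.0442.

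**Figure D5:**
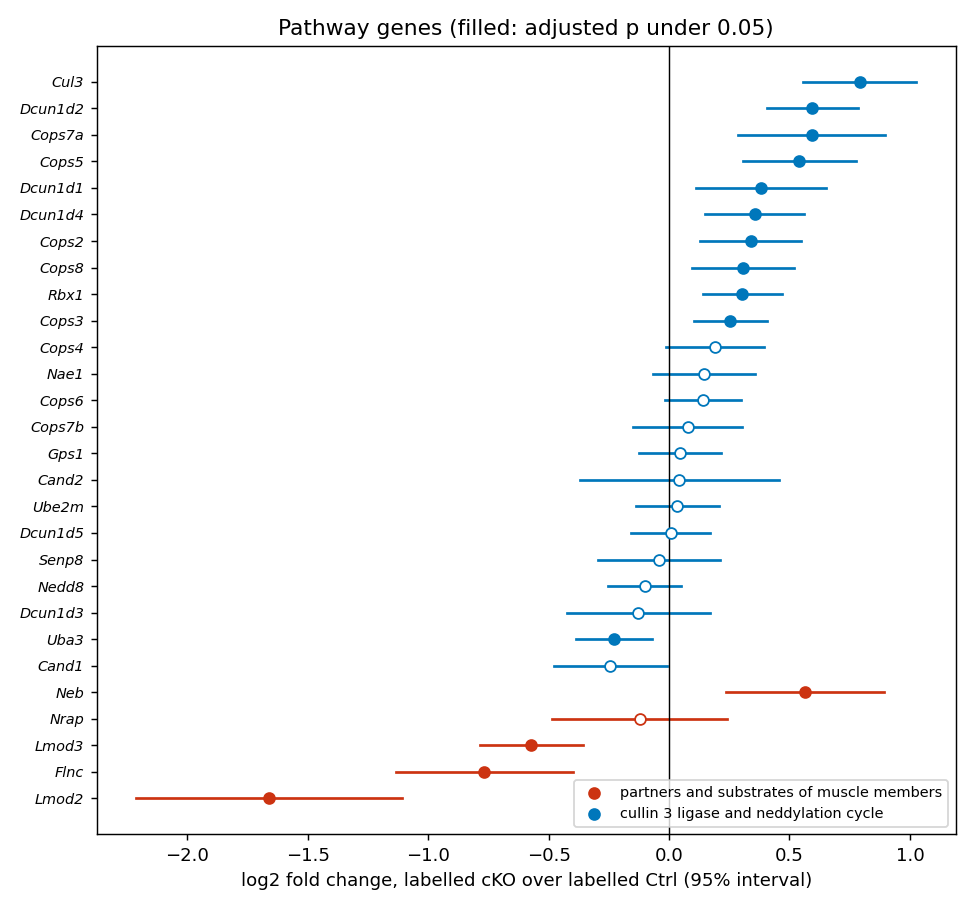
Log2 fold change, libraries labelled cKO over labelled Ctrl, with 95% intervals, of 23 genes of the cullin 3 ligase and its NEDD8 cycle (blue) and 5 partners of the muscle members (red), filled where the adjusted p is under 0.05. Cul3 lies highest at 0.79 and Lmod2 lowest at -1.66.

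Substrates of the remaining adaptors formed a longer list. Of 20 substrates, Aurkb, the gene of Aurora B kinase, was not tested and had 3 to 12 counts per library. Of the 19 substrates tested, 4 were higher, 1 was lower and 14 did not pass, with a median log2 fold change of -0.03. These counts are near the shares over all genes, 12.6% higher and 11.8% lower for 24.4% in all, and are no result about the substrates. Tiam1, an activator of RAC1 and target of KBTBD6 and KBTBD7, was the 1 gene with a fold over 2. It had 6.61, 8.47 and 11.3 CPM labelled Ctrl and 21.2, 30 CPM and 15.7 CPM labelled cKO, without overlap (log2 1.34, SE 0.275, adjusted p = 0.0153 by edgeR). The adjusted p was 0.0547 without control mouse 1 and 0.0557 without control mouse 2. The count of 4 higher substrates was 1 without control mouse 1, control mouse 2 or cKO mouse 3 and 2 without cKO mouse 1, and the count of 1 lower substrate was 0 without any 1 of these 4 libraries. Of 5 other BTB-kelch genes tested, 2 were higher and 0 lower, and of 19 further BTB adaptors of cullin 3, 2 were higher and 0 lower, beside the same shares over all genes. With total counts these became 1 and 0 among the BTB-kelch genes and 0 and 6 among the BTB adaptors, and 2 and 8 among the substrates. For both lists the higher count was 1 without control mouse 1 or cKO mouse 3, for the BTB-kelch genes also without control mouse 2 and for the BTB adaptors also without cKO mouse 1, while without cKO mouse 2 the BTB adaptors had 3 lower.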

How the data were processed

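RNA was measured in GP muscle of 6 mice, in 3 libraries labelled Ctrl and 3 labelled cKO, described in the series as biological replicates. The deposited values are raw counts per gene without normalization, 1 column per library; per the labels, the authors used FastQC 0.11.8, Trimmomatic 0.39, HISAT2 2.1.0 on mm10 and featureCounts 1.6.2. The gene annotation and strand setting are not given in the sources used here. Counts between replicates differed by more than sampling noise (chi-square per degree of freedom 31.3 to 107), so each library was kept as 1 replicate. Total counts were 33860001 to 48839910.

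The test was edgeR's quasi-likelihood test (edgeR 4.0.16 under R 4.3.3, with TMM factors, filterByExpr, glmQLFit and glmQLFTest, default settings, Benjamini-Hochberg adjustment over 14180 genes). Standard errors were derived from the F statistic, and intervals are 95%. A gene passed at an adjusted p under 0.05 and was called with a fold change over 2 as well. In place of the DESeq of the study, the Wald test of DESeq2 1.42.0 was run as an alternative. An exact two-sided permutation test of 3 against 3 cannot give a p below 0.1. Other alternatives were scaling by total counts or by DESeq2's size factors, a minimum of 10 counts in each library or no filter at all, the mouse number as a block, a robust fit, glmTreat against a fold of 1.2 and each library left out in turn. The steps were tested on simulated data.

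Exon lengths and positions came from GENCODE M21 on GRCm38, in which 95.5% of the symbols were found, and promoters from RefSeq on GRCm38.p6. Protein sequences were not used here. Values in every library are given for Klhl31, Klhl40, Klhl41, members that passed and the 5 with the highest level per length. Pathway genes are named if called, plus Cul3, Neb, Lmod3, Nrap and Flnc, and Aurkb after its counts were seen. Other members named were chosen after their values were seen. The members and the lists of roles, pathway genes and markers were chosen with earlier results of these data known.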

Additional observations from a re-analysis of the deposited data

How the results depend on the processing

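With total counts in place of TMM, 4 members were higher and 11 lower in the libraries labelled cKO (9 of the 14 members that passed, and 6 others). With glmTreat against a fold of 1.2, 4 were higher. Leaving out each library in turn gave 5 to 9 higher, 3 to 6 lower and 0 to 2 lower with a fold over 2. DESeq2's Wald test gave 17 members in all, the original 14 among them. The mouse numbers did not pair the samples (correlations of same-numbered deviations 0.084, -0.215 and -0.002, and not every sample correlated best with its own number); with the mouse number as a replicate block 9 members passed, 8 of them among the 14, and of the 9, 6 were higher, 3 lower and 1 lower with a fold over 2. The block took Klhl41 to an adjusted p of 0.052 in edgeR, Klhl31 to 0.059, Klhl13 to 0.0652, Klhl2 to 0.0655, Kbtbd8 to 0.105 and Klhl7 to 0.112, and Klhl34 passed with 0.0293. For the 18 members described singly, 252 alternative fits gave 194 on the same side of the threshold, 47 no longer past it, 11 newly past it and 0 of opposite sign. Over all tested members 40 fits in 14 members changed sign, each with an absolute log2 fold change of at most 0.23 in the fit reported and 0 of them in members that passed. Of the genes of cullin 3 and the NEDD8 cycle, 3 were higher and 0 lower (10 and 1 in the fit reported) both with the mouse number as a replicate block and with glmTreat, and Neb had an adjusted p of 0.08 and 0.0927. Nrap ranged from -0.22 to 0.003 on the log2 scale with 1 library left out, and 0.003 was the value without cKO mouse 2. The members Kbtbd12, Klhl21, Klhl22, Klhl23 and Klhl33 passed under every alternative run. The cause of these shifts was not tested. At this depth the 5 untested members had at most 5 counts in any library, and for them no difference was detectable.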

Other observations

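Ratios among the 3 most abundant muscle members are given as a description chosen after the values were seen. The ratio of Klhl31 to Klhl41 per kb, which does not depend on the scaling of a library, was 0.105, 0.094 and 0.11 in the libraries labelled Ctrl and 0.197, 0.227 and 0.212 in those labelled cKO. The mean was 0.103 ± 0.00826 (SD, n = 3) and 0.212 ± 0.0151, without overlap. That gap follows from Klhl31 being higher, and Klhl41 lower, in every library labelled cKO than in any labelled Ctrl. The ratio of Klhl40 to Klhl41 was 0.201, 0.224 and 0.255 labelled Ctrl and 0.269, 0.167 and 0.184 labelled cKO, with overlap. The ratio of Klhl31 to Klhl40 was 0.52, 0.419 and 0.432 labelled Ctrl and 0.73, 1.36 and 1.15 labelled cKO, without overlap. Klhl41 alone took 43.8% to 46.9% of the summed CPM of all members labelled Ctrl and 31.6% to 32.8% labelled cKO. Klhl41, Klhl40, Klhl31 and Kbtbd13 together took 64.9% to 70.5% and 55.4% to 59%. The summed level of all members was 2939 to 3447 CPM and 2874 to 3102 CPM, and these ranges overlapped.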
